A study of Arabidopsis thaliana with 6 samples.

Results

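The sugar starvation genes described here are 10 loci of thale cress, Arabidopsis thaliana, followed in its stems: bZIP1, bZIP53, ASN1 (also DIN6), GDH1, GDH2, DIN1 (SEN1), DIN2 (BGLU30), DIN10, BT2 and DRM1. They were picked by locus from the 24434 genes of the deposited table, with their values in these stems already in view, so those values are given as a description and support no test. All 10 were found, and 9 of the 10 passed the filter used for testing, a mean of 1 FPKM or more (FPKM is fragments per kilobase of transcript, scaled to library size). The samples were 3 stems of plants labelled as overexpressing Bnt07G011994 and 3 wild-type (WT) stems, all of the Columbia ecotype, raised under glass at 22 °C on days of 15 h light and nights of 9 h, and cut when the stems were about 10 cm long. One plant gave 1 sample. The sources used here do not give the promoter that drives the transgene, its species of origin, the number of independent transgenic lines, the hour of harvest or the library batches.

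When sugar runs short, as in a long night, plant cells slow growth and turn to amino acids and stored compounds for carbon. The kinase SnRK1 is a centre of this response, and pairs of bZIP transcription factors of the C and S1 groups, which include bZIP1 and bZIP53, act downstream of it. Their best known targets include ASN1, an asparagine synthetase that stores nitrogen in a carbon-poor amide, and a proline dehydrogenase gene. The DIN genes take their name from induction in darkened leaves, where sugar feeding represses them.

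The promoters of 3 of the genes are shown: ASN1, which had the highest log2 fold change of the 9 tested, and DIN10 and BT2, whose levels spread widely between stems. Each line gives the 250 bases before the annotated start of the gene, read 5′ to 3′ on the strand of the gene from the RefSeq TAIR10.1 genome. They lie at chr3:17441432-17441681 (minus strand) for ASN1, chr5:6833314-6833563 (plus strand) for DIN10 and chr3:17910739-17910988 (minus strand) for BT2. Capitals mark any of the searched motifs on either strand.
ASN1: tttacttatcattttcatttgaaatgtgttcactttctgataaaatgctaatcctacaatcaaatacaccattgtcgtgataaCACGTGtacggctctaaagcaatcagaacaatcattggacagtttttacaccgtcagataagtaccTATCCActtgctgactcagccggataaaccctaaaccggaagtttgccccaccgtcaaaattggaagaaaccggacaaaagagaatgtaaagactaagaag
DIN10: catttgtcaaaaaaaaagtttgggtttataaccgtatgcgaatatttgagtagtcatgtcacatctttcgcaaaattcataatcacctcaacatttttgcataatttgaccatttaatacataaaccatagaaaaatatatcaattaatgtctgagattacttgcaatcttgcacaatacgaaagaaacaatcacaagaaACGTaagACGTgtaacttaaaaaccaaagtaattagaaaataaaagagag
BT2: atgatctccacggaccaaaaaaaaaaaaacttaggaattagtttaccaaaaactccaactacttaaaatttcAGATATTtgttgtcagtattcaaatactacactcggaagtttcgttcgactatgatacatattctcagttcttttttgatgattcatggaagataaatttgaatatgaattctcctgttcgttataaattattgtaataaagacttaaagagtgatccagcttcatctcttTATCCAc

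The motifs were searched on both strands from 250 bases before to 50 after the start, in the 10 genes and in 27443 protein-coding promoters of the reference. The G-box CACGTG, a bZIP target, was present in 2 of the 10 (ASN1 and GDH1), against 7.68% of all promoters. The core ACGT, which every CACGTG also contains, was present in 4 of the 10, against 49.9%. TATCCA, an element of sugar-repressed promoters, was present in 4 of the 10, ASN1, DIN1 and BT2 among them, against 16.1%. ACTCAT, a site bound by S1 bZIP factors in a proline dehydrogenase promoter, was present only in DRM1 of the 10, against 14.7%. AATATCT, the core of the evening element of clock-regulated genes, was present only in BT2 of the 10, against 11.5%. In the printed ASN1 promoter the capitals are a CACGTG from 167 to 162 bases before the start and a TATCCA from 101 to 96 before it. These are matches of letters and not shown to be bound sites.

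Gene-assigned reads numbered 44597288 to 45642240 per library. WT replicate 1 stood apart from the other libraries. Pairs that include it differed by 6.25 to 9.97 times sampling noise (median over genes), against 1.77 times for WT replicates 2 and 3 and 2.92 to 4.87 times for the other pairs. Fold changes are also given without WT replicate 1, when WT replicates 2 and 3 alone stand for WT. In whole stems, fewer cells of a type and less RNA per cell cannot be told apart. Fibre and vessel genes, which mark stems, were present: their 7 markers summed to 688 to 1021 FPKM in the overexpressor and 163 to 880.3 FPKM in WT, with the 163 FPKM in WT replicate 1.

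ASN1 had the highest log2 fold change of the 9 tested members, and its mean in the overexpressor was 8.12 times that in WT. The ratio of means was 8.27 for BT2, whose groups overlapped. Most others had their highest level in overexpressor replicate 1 and their lowest in WT replicate 1, and the genotypes overlapped. Of the 9 tested, 2 (ASN1 and DIN1) were higher in all overexpressor stems than in any WT stem, against a background of 4.76% of all genes tested, and none was lower in all, against 9.69%. By limma's test across 16870 genes, 0 of the 9 passed an adjusted p of 0.05, against 0.0119% of all genes, while 1 of the 9 (ASN1) had an unadjusted p under 0.05, against 5.43%. Voom on recovered reads also called 0. The genes were chosen with this contrast known, so nothing is read from these counts. Log2 fold changes below are from limma on log2(FPKM + 1), which understates changes of genes of low level.

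**Figure D1:**
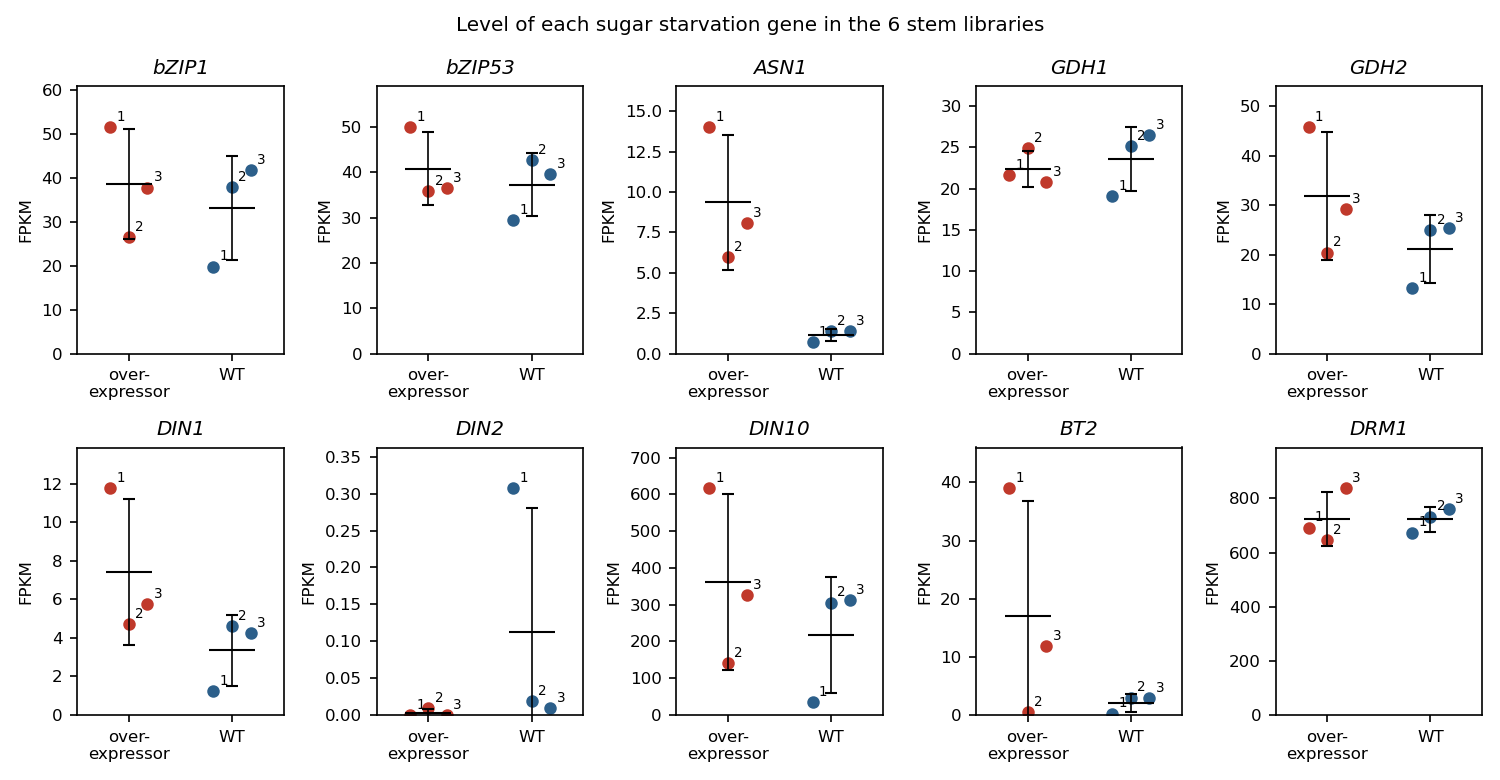
FPKM of the 10 genes in each library, with the y axis of each panel starting at 0; points are stems numbered by replicate, and the bar and whiskers are the mean and SD (n = 3 each). ASN1 had 5.98 to 14.0 FPKM in the overexpressor against 0.710 to 1.38 FPKM in WT, while overexpressor replicate 1 was the highest point for 7 of the genes.

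Of the regulators, bZIP1 (AT5G49450; chromosome 5, 20051829 to 20052735, plus strand) encodes an S1 group bZIP factor whose transcript is repressed by sugar. It had 51.7, 26.5 and 37.8 FPKM in overexpressor replicates 1, 2 and 3, against 19.8, 37.9 and 41.9 FPKM in WT replicates 1, 2 and 3. The groups overlapped, with a high overexpressor replicate 1 and a low WT replicate 1 at the ends. The log2 fold change of bZIP1 was 0.23 (SE 0.35), and -0.094 (SE 0.26) without WT replicate 1. bZIP53 (AT3G62420; chromosome 3, 23091586 to 23092850, minus strand) encodes a factor of the same group that pairs with C group members. It had 50.04, 35.9 and 36.6 FPKM in overexpressor replicates 1, 2 and 3, against 29.4, 42.7 and 39.6 FPKM in the WT replicates. The same stems were at the ends and the others lay within 35.9 to 42.7 FPKM. The bZIP53 log2 fold change was 0.13 (SE 0.19), and -0.027 (SE 0.16) without WT replicate 1.

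ASN1 (AT3G47340; chromosome 3, 17437840 to 17441431, minus strand) makes asparagine from aspartate with glutamine as the nitrogen donor. It had 14.0, 5.98 and 8.05 FPKM in overexpressor replicates 1, 2 and 3, from 1752, 750 and 997 reads. In WT replicates 1, 2 and 3 it had 0.710, 1.37 and 1.38 FPKM, from 87, 170 and 170 reads. The groups were far apart: the lowest overexpressor stem was 4.34 times the highest WT stem. Means were 9.36 ± 4.18 FPKM in the overexpressor and 1.15 ± 0.383 FPKM in WT (SD, n = 3 each), a ratio of 8.12, or 6.81 against WT replicates 2 and 3 alone. The difference of 8.20 FPKM exceeded both SDs. So did that of DIN1, at 4.06 FPKM with SDs of 3.79 and 1.84 FPKM. These values were in view when the genes were picked, and ASN1 did not pass the adjusted threshold (limma adjusted p = 0.48). The log2 fold change over all 6 libraries was 2.21 (SE 0.31), the fifth highest of the 16870 genes tested. Without WT replicate 1 the ASN1 log2 fold change was 2.05 (SE 0.31). With a pseudocount of 0.1 FPKM in place of 1 it was 2.88.

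The glutamate dehydrogenases release ammonium from glutamate and so return its carbon to respiration, and the pair differed from each other. GDH2 (AT5G07440; chromosome 5, 2355759 to 2358241, plus strand), which encodes the alpha subunit, had 45.9, 20.4 and 29.2 FPKM in overexpressor replicates 1, 2 and 3, against 13.3, 24.9 and 25.3 FPKM in the WT replicates. It followed the pattern of bZIP1, with overlap between the groups, and its log2 fold change was 0.55 (SE 0.36), or 0.25 (SE 0.31) without WT replicate 1. GDH1 (AT5G18170; chromosome 5, 6006035 to 6008726, plus strand), the beta subunit, had 21.6, 24.9 and 20.8 FPKM in the overexpressor, against 19.1, 25.2 and 26.5 FPKM in WT. Overexpressor replicate 1 was not high for GDH1, whose values lay within 19.1 to 26.5 FPKM in all stems. The GDH1 log2 fold change was -0.060 (SE 0.15), and -0.20 (SE 0.10) without WT replicate 1. Of the GDH1 exons, 166 of 1851 bp overlap AT5G18180 on the opposite strand, a gene at 0.122 to 0.273 FPKM in the overexpressor and 0.338 to 0.772 FPKM in WT.

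Of the DIN genes, DIN10 (AT5G20250; chromosome 5, 6833564 to 6836862, plus strand), of the raffinose synthase family, was abundant and highly variable. It had 617, 142 and 327 FPKM in overexpressor replicates 1, 2 and 3, against 36.0, 306 and 313 FPKM in the WT replicates. WT replicate 1 was lowest by far, and overexpressor replicate 2 lay below WT replicates 2 and 3. The DIN10 log2 fold change was 1.01 (SE 0.98), and -0.017 (SE 0.56) without WT replicate 1. DIN1 (AT4G35770; chromosome 4, 16944878 to 16946266, plus strand), a senescence-associated gene with a rhodanese domain, had 11.8, 4.73 and 5.76 FPKM in overexpressor replicates 1, 2 and 3, against 1.24, 4.60 and 4.23 FPKM in the WT replicates. Its groups did not overlap, but by a narrow margin, the lowest overexpressor value being 1.03 times the highest WT value. The DIN1 log2 fold change was 0.97 (SE 0.46), and 0.55 (SE 0.33) without WT replicate 1.

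DIN2 (AT3G60140; chromosome 3, 22216540 to 22220824, plus strand), of the beta-glucosidase family, was the 1 gene of the 10 below the filter. It had 0, 1 and 0 reads in overexpressor replicates 1, 2 and 3, against 32, 2 and 1 reads in WT replicates 1, 2 and 3. A count of 0 allows up to 3 reads, or 0.0283 FPKM in overexpressor replicate 1, counting error only. WT replicate 1, at 0.307 FPKM, was thus the only library of the 6 above that limit. In the other 5 libraries DIN2 had 0 to 2 reads, within that limit, and no fold change is given.

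BT2 (AT3G48360; chromosome 3, 17907767 to 17910738, minus strand) encodes a BTB and TAZ domain scaffold protein whose transcript is high under sugar shortage and low after sugar feeding. It had 39.0, 0.493 and 11.8 FPKM in overexpressor replicates 1, 2 and 3, from 4648, 59 and 1400 reads. In WT replicates 1, 2 and 3 it had 0.248, 2.99 and 2.97 FPKM, from 29, 355 and 349 reads. Overexpressor replicate 1 was 79.1 times overexpressor replicate 2, and replicate 2 lay below WT replicates 2 and 3. BT2 had the largest SD of log2(FPKM + 1) among the 3 overexpressor stems of all 16870 genes tested, 2.41 against a median of 0.14 over those genes. Its mean was 17.1 ± 19.8 FPKM in the overexpressor and 2.07 ± 1.58 FPKM in WT (SD, n = 3 each), a difference smaller than the overexpressor SD. The log2 fold change was 1.76 (SE 1.23), 3.07 without overexpressor replicate 2 and 0.70 without overexpressor replicate 1.

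DRM1 (AT1G28330; chromosome 1, 9933786 to 9935440, minus strand), a dormancy-associated gene high in resting buds, was the most abundant and among the steadiest. It had 692, 646 and 838 FPKM in overexpressor replicates 1, 2 and 3, against 674, 733 and 761 FPKM in the WT replicates. The groups overlapped, with no stem far from the others, and the log2 fold change was -0.0016 (SE 0.14) as deposited and 0.043 after median ratio scaling.

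**Figure D2:**
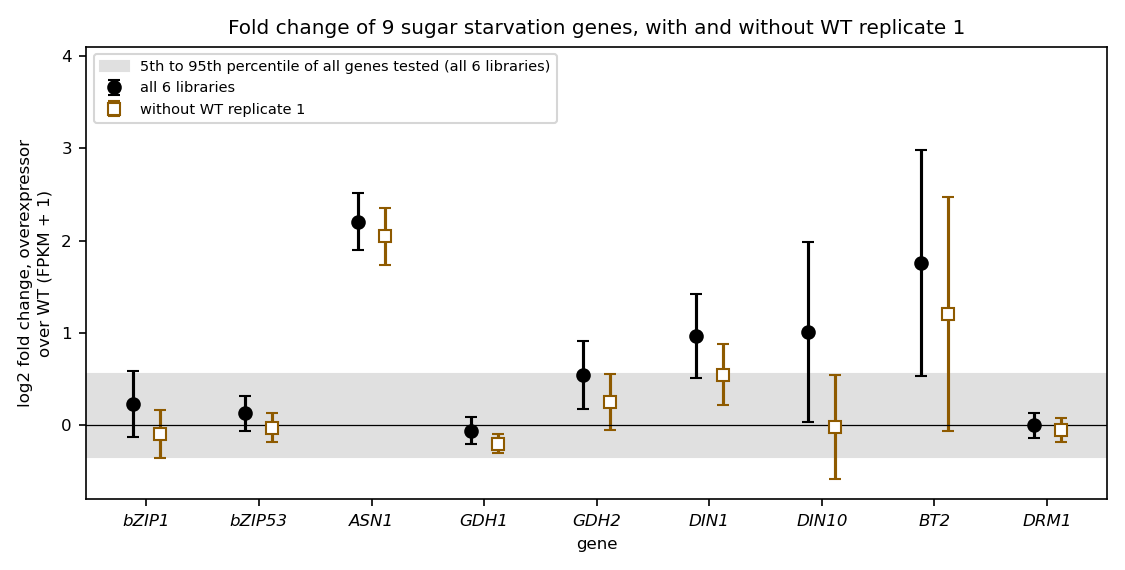
Log2 fold change (y axis, log2 of FPKM + 1, overexpressor over WT) of the 9 tested genes (x axis) with SE bars, for all 6 libraries (filled circles) and without WT replicate 1 (open squares); the grey band spans the 5th to 95th percentile of all genes tested, -0.35 to 0.56. ASN1 stayed at 2.05 without WT replicate 1, while DIN10 was at 1.01 with it and -0.017 without it.

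Ordered by mean FPKM over the 6 libraries, DRM1 (724 FPKM) came first, above DIN10 (290.1 FPKM) with no overlap of their ranges. DIN10 overlapped the genes below it only through WT replicate 1. The next 4, bZIP53 (39.0), bZIP1 (35.9), GDH2 (26.5) and GDH1 (23.0 FPKM), had overlapping ranges from each to the next. BT2 (9.58), DIN1 (5.39) and ASN1 (5.25 FPKM) also overlapped one another, and DIN2 (0.0575 FPKM) was last. The range of BT2, 0.248 to 39.0 FPKM, also overlapped those of the 4 genes just named above it. It overlapped DIN2 as well, which had 0.307 FPKM in WT replicate 1. ASN1, at up to 14.0 FPKM, overlapped GDH2, which had 13.3 FPKM in WT replicate 1. FPKM is per length of transcript, so these levels can be compared between genes. The place of ASN1 depended on genotype: its overexpressor mean of 9.36 FPKM was above the 7.41 FPKM of DIN1, and its WT mean of 1.15 FPKM was below the 3.36 FPKM of DIN1.

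Overexpressor replicate 1 was the highest of the 6 libraries in 7 of the 9 tested genes, all but DRM1 and GDH1, against 18.9% of all genes tested. WT replicate 1 was the lowest in 8 of the 9, all but DRM1, against 31.9%. In the same 7 genes overexpressor replicate 1 was above replicate 3 and replicate 3 above replicate 2, an order found in 18.5% of all genes. The median SD of log2(FPKM + 1) over the 3 overexpressor stems was 0.56 for the 9 genes and 0.14 for all genes tested. As a description, with no test, the Pearson r of log2(FPKM + 1) between pairs of the 9 genes had a median of 0.67 over the 6 libraries, from -0.14 (BT2 with GDH1) to 0.98 (DIN10 with bZIP1). Without WT replicate 1 that median was 0.48. The points share libraries, and genotype and WT replicate 1 both enter them.

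The WT stems gave no such spread apart from replicate 1. WT replicates 2 and 3 differed by 0.816% of their mean for BT2, by 0.889% for ASN1 and by 9.84%, the most of the 9 genes, for bZIP1. Against the mean of that pair, overexpressor replicate 2 had 4.36 times the ASN1 level but 0.165 times the BT2 level and 0.458 times the DIN10 level. In the same stem DIN1 was at 1.07 times and bZIP1 at 0.663 times the mean of the pair. ASN1 and, by a narrow margin, DIN1 were the only ones of the 9 above both WT replicates 2 and 3 in that stem.

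**Figure D3:**
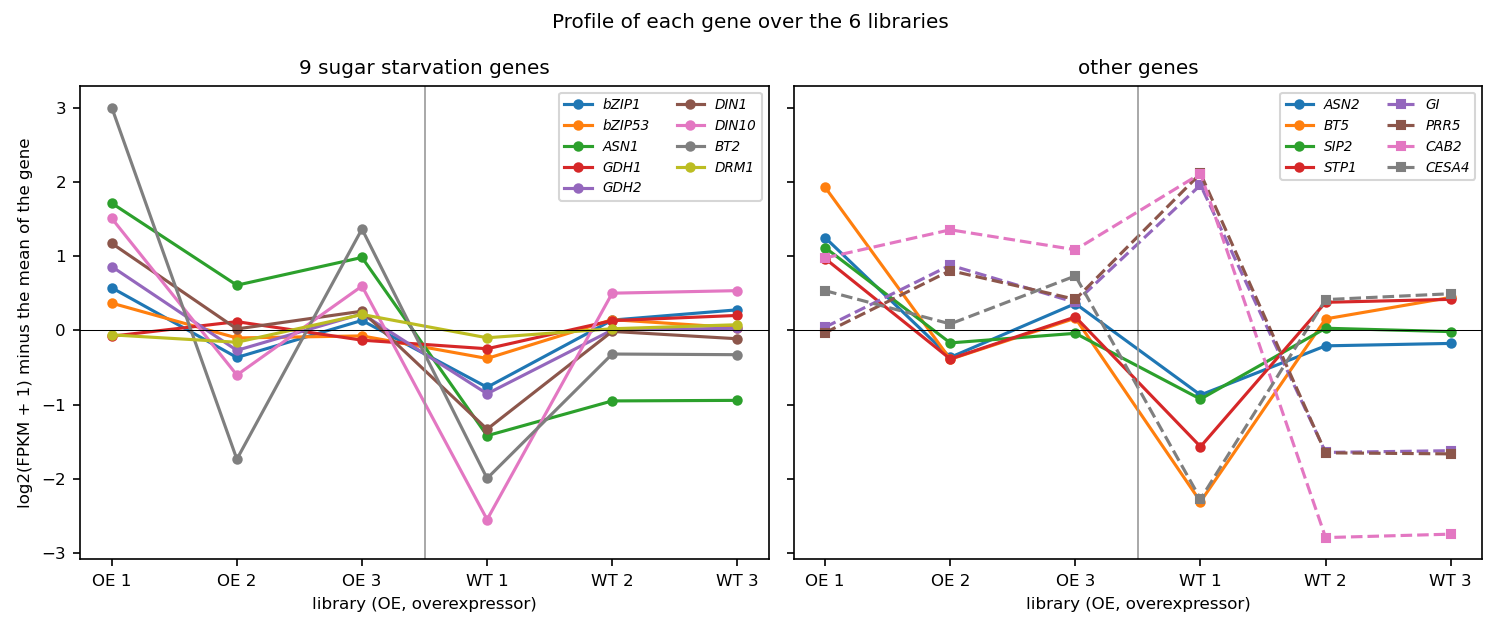
Log2(FPKM + 1) minus the mean of each gene over the 6 libraries (y axis) in each library (x axis; OE, overexpressor), with the 9 tested starvation genes on the left and 8 other genes on the right, 4 of them with solid lines (ASN2, BT5, SIP2, STP1) and 4 with dashed lines (GI, PRR5, CAB2, CESA4). BT2 spans 0.248 to 39.0 FPKM, and the dashed GI and PRR5 peak in WT replicate 1, where most starvation genes are lowest.

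Markers of time of day and of other tissues also moved between these stems. The clock gene GI had 24.3, 44.2 and 30.9 FPKM in overexpressor replicates 1, 2 and 3, against 94.7, 6.85 and 6.98 FPKM in the WT replicates. Among the overexpressor stems and WT replicate 1, GI was highest where BT2, DIN10 and ASN1 were lowest, while WT replicates 2 and 3 had the lowest GI with middling BT2 and DIN10. The 10 clock genes summed to 326, 446 and 359.8 FPKM in overexpressor replicates 1, 2 and 3, against 782, 261 and 249 FPKM in the WT replicates. None of the 9 clock genes tested passed the threshold in either direction, against 0.0119% of all genes tested. Without WT replicate 1, 0 were called, against 0.136%, and 8 of the 9 had a positive log2 fold change. Their median was then 0.86, against -0.020 over all genes tested.

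CAB2, a light-harvesting gene, was at 131, 171 and 142 FPKM in overexpressor replicates 1, 2 and 3, against 289.5, 8.68 and 8.99 FPKM in the WT replicates. The 6 photosynthesis markers summed to 14642 to 16808 FPKM in the overexpressor and 15249 to 15801 FPKM in WT. Most of that sum was RBCS1A (means of 9977 and 9603 FPKM) and RCA (3684 and 4034 FPKM), which hides the others. Like CAB2, LHCB3, LHCA1 and PSAD-1 were highest in WT replicate 1 and lowest in WT replicates 2 and 3. None of the 6 was called over all 6 libraries, against 0.0119% of all genes tested. Without WT replicate 1, limma called 3 higher (CAB2, LHCB3 and LHCA1), against 0.136% of all genes called in either direction. The 8 leaf senescence genes summed to 169 to 209.8 FPKM in the overexpressor and 207 to 354 FPKM in WT, highest in WT replicate 1, where SAG12, a senescence protease, stood at 123 FPKM. The 5 epidermis markers summed to 613 to 755 FPKM in the overexpressor and 276 to 839 FPKM in WT, and the 6 phloem markers to 321 to 353 FPKM in the overexpressor and 399.9 to 496 FPKM in WT. The 5 flower and anther markers found in the table summed to no more than 3.20 FPKM in the overexpressor and 2.25 FPKM in WT. The part of these genes and tissues in the levels of the starvation genes was not tested.

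The rest of the starvation pathway was read from 7 further lists of 67 genes, of which 62 were tested. Over all 6 libraries 0 of the 62 passed limma's adjusted threshold in either direction, and 3 had an unadjusted p under 0.05, against 5.43% of all genes tested. Without WT replicate 1, limma called 1, MYB75 (higher in the overexpressor), against a background of 0.136%. The median log2 fold change of the 9 starvation genes was 0.55, against -0.036 over all genes tested, and without WT replicate 1 these were -0.017 and -0.020. The lists had medians between -0.072 and 0.30, and between -0.17 and 0.11 without WT replicate 1.

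Upstream, the 7 subunit genes of the SnRK1 kinase had 0 called and a median log2 fold change of 0.062. The catalytic subunit KIN10 had 31.8 ± 0.933 FPKM in the overexpressor and 30.5 ± 2.07 FPKM in WT (SD, n = 3 each), and was named after its values were seen. The regulatory subunit gene KING1 had 97.0 ± 10.3 and KINBETA1 74.6 ± 20.1 FPKM in the overexpressor, against 87.4 ± 20.5 and 64.0 ± 24.9 FPKM in WT (SD, n = 3 each). KINBETA1, at 35.4 FPKM in WT replicate 1 and 95.1 FPKM in overexpressor replicate 1, had the same stems at its ends as bZIP1. The other 7 C and S1 group bZIP genes had 0 called and a median of -0.047, or -0.14 without WT replicate 1. Of these 7, 3 were lower in all overexpressor stems than in any WT stem, against 9.69% of all genes tested. They were bZIP25 and, named after their values were seen, bZIP10 and bZIP44. The list was chosen with earlier results known, so nothing is read from this count. bZIP2 had 91.8 ± 5.72 FPKM in the overexpressor and 90.0 ± 9.16 FPKM in WT, and bZIP25 58.0 ± 2.05 and 65.0 ± 0.231 FPKM (SD, n = 3 each). The 7 class II trehalose phosphate synthase genes, whose proteins are linked to sugar signalling, had 0 called and a median of 0.067, with 6 of 7 positive. Without WT replicate 1 their median was -0.17, with 2 of 7 positive. TPS8 had 47.4 ± 6.66 FPKM in the overexpressor and 49.7 ± 8.61 FPKM in WT, and TPS7 39.0 ± 4.94 and 39.7 ± 10.9 FPKM (SD, n = 3 each).

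Downstream, genes for the breakdown of branched-chain amino acids and proline had 0 of 11 called, 10 of 11 with a positive log2 fold change (42.3% of all genes were positive) and a median of 0.30. Without WT replicate 1, 8 of 11 were positive and the median was 0.11. PRODH1 (ERD5 in the reference), a proline dehydrogenase gene, had 219.9, 90.0 and 51.6 FPKM in overexpressor replicates 1, 2 and 3, against 24.4, 143 and 153 FPKM in the WT replicates. The exception over all 6 libraries was AT5G38710, annotated with the same product as PRODH1 and named after its values were seen. It had 11.0, 28.7 and 9.55 FPKM in the overexpressor against 68.5, 18.7 and 20.1 FPKM in WT. It was highest in WT replicate 1, where PRODH1 was lowest. BCAT2, a branched-chain aminotransferase, stood at 100.3 ± 8.02 FPKM in the overexpressor and 98.4 ± 9.51 FPKM in WT (SD, n = 3 each).

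Of 12 other genes of darkness or sugar depletion, 0 were called and 9 had a positive log2 fold change, with a median of 0.14, but without WT replicate 1 these were 5 of 12 and -0.15. AT3G15450 had 1332, 536 and 729 FPKM in overexpressor replicates 1, 2 and 3, against 214, 655 and 712 FPKM in the WT replicates. DRM2, a relative of DRM1, had 1753 ± 137 FPKM in the overexpressor and 1746 ± 511 FPKM in WT (SD, n = 3 each), with its highest value of 2334 FPKM in WT replicate 1. STP1, a hexose uptake transporter named after its values were seen, had 548, 214 and 317 FPKM in the overexpressor against 93.6, 364 and 374 FPKM in WT. AT3G15450 and STP1 thus shared the highest and lowest stems of DIN10, and DRM2 did not.

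Family relatives of the starvation genes did not all share their pattern, and 0 of 11 were called. SIP2, of the same family as DIN10, had 363, 149 and 163 FPKM in overexpressor replicates 1, 2 and 3, against 87.5, 171 and 165 FPKM in the WT replicates. BT4 had 72.4, 34.9 and 29.9 FPKM in the overexpressor against 29.1, 58.7 and 56.3 FPKM in WT. Both had overexpressor replicate 1 highest and WT replicate 1 lowest. Further relatives were named after their values were seen. ASN2, another asparagine synthetase gene, had 10.9, 2.88 and 5.42 FPKM in the overexpressor against 1.73, 3.32 and 3.42 FPKM in WT. Its overexpressor replicate 2 lay within the WT range, unlike that of ASN1. ASN3 ran the other way, at 7.01, 8.38 and 6.20 FPKM in the overexpressor against 12.2, 9.14 and 8.06 FPKM in WT. BT5 had 77.1, 14.7 and 22.0 FPKM in the overexpressor against 3.13, 21.8 and 26.9 FPKM in WT. BT1 was instead highest in WT replicate 1, at 28.5 FPKM. None of the 10 genes had a near-identical copy, the longest match at another gene being 1279 bp at 84.0% identity between GDH1 and GDH3.

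Of 7 genes induced by sugar, 0 were called over all 6 libraries, and the median log2 fold change was -0.072. APL3, a large subunit of ADP-glucose pyrophosphorylase, had 40.5 ± 6.82 FPKM in the overexpressor and 42.2 ± 3.42 FPKM in WT (SD, n = 3 each). DFR, an anthocyanin enzyme, had 7.35, 34.1 and 1.66 FPKM in overexpressor replicates 1, 2 and 3, against 48.9, 18.4 and 19.3 FPKM in the WT replicates. DFR was highest in WT replicate 1 and next in overexpressor replicate 2, the stems in which BT2 was lowest. MYB75, an activator of anthocyanin genes, had 7.75, 6.54 and 8.28 FPKM in the overexpressor against 40.8, 1.43 and 1.49 FPKM in WT.

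**Figure D4:**
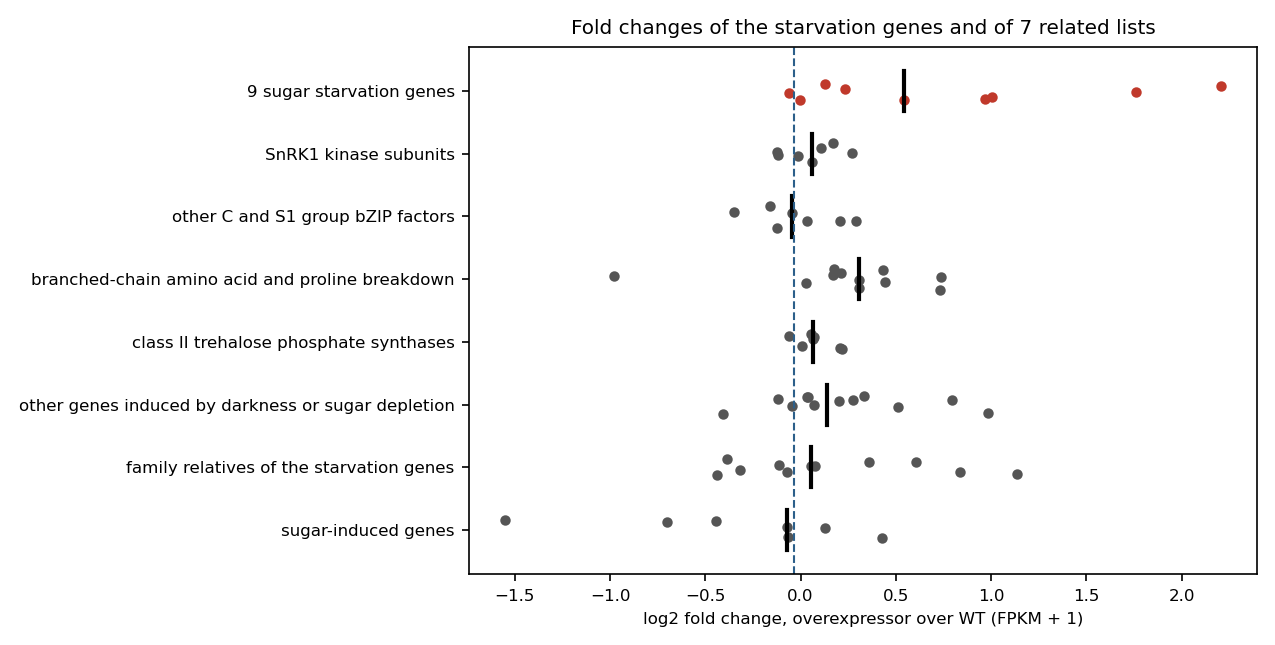
Log2 fold change (x axis, log2 of FPKM + 1, overexpressor over WT) of each tested gene, one point per gene, for the 9 starvation genes (top row, red) and 7 related lists (rows); black ticks are list medians, the dashed line is the median of all genes tested (-0.036), and points are spread vertically for display only. ASN1, at 2.21, lies farthest right, and the SnRK1 subunits lie within -0.13 to 0.27.

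The genes whose profile was most like that of ASN1 were found by Pearson r of log2(FPKM + 1) over the 6 libraries, among the 12604 genes that averaged 5 FPKM or more. The 5 highest were AT1G59740, of the major facilitator superfamily (r = 0.989), the chloroplast protease gene DEG2 (0.989), AT4G01870, a tolB-like protein (0.986), AT1G53530, a peptidase gene (0.981), and LHCB2.3, a light-harvesting gene (0.977). LHCB2.3 had 25.1, 18.4 and 25.4 FPKM in overexpressor replicates 1, 2 and 3, against 5.57, 8.60 and 8.66 FPKM in the WT replicates. AT1G59740 had 10.5, 6.40 and 7.37 FPKM in the overexpressor against 2.79, 3.72 and 4.17 FPKM in WT. All 5 were higher in each overexpressor stem than in any WT stem, against 4.76% of all genes tested. ASN1 had that same split and the 5 were picked by their likeness to it, so nothing is read from this. The 3 lowest were UNE12, which encodes a bHLH factor, AT2G24360, a protein kinase gene, and AT1G80360, a transferase gene, with r of -0.996, -0.995 and -0.994. UNE12 had 34.5, 37.8 and 36.1 FPKM in the overexpressor against 44.2, 43.1 and 43.5 FPKM in WT.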

How the data were processed

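RNA sequencing was done on 6 stem libraries, 3 of each genotype, 1 plant each. The library kit was a NEBNext Ultra, per the labels' protocols. HISAT2 is named in the submitters' processing notes. The sources used here give neither its version nor the genome build, annotation, counter or strandedness. FPKM values for 24434 genes were deposited, 1 column per sample. All 24434 identifiers matched loci of RefSeq TAIR10.1. FPKM times the exonic length there gave whole reads (within 0.1) for 100% of values in each library, and reads above are these recovered counts.

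The main test was limma 3.58.1 (R 4.3.3) on log2(FPKM + 1), with the trend option of its empirical Bayes step, for genes averaging 1 FPKM or more. It was two-sided, Benjamini-Hochberg adjusted and checked on simulated data. The simulated libraries all had the same spread and none stood apart, so that check does not cover a library such as WT replicate 1. With 1 plant per sample, p-values measure spread between plants. In the overexpressor that may include spread between transgenic lines, whose number is not given. An exact permutation test of 3 against 3 cannot go below p = 0.1. The 10 genes and all lists were chosen with earlier results of these data known. Named genes were the 10, list members past the threshold or else the 2 most abundant, GI, CAB2, and the 5 and 3 genes most and least like ASN1; other names are marked or are markers. Promoters came from RefSeq gene starts, and near copies (at least 95% identity over 50% of exons) from blastn 2.17.0. The alternatives were other pseudocounts, filters and scalings, a replicate block, voom and leaving out each library.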

Additional observations from a re-analysis of the deposited data

How the results depend on the processing

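No starvation gene was called under any alternative run. Their median log2 fold change, 0.55, lay within -0.017 (without WT replicate 1) to 0.82 (without overexpressor replicate 2). Genes called over the table, 2, came to 4 with no filter, 1 with voom on recovered reads and 1 to 23 when a library was left out, 23 of them without WT replicate 1. Called members of the related lists came to 0 to 1 in those fits. The replicate number as a block left 0 called. Deviations of same-numbered stems from their group means correlated at -0.60, -0.59 and 0.03. With 3 stems per group and WT replicate 1 far from the others, these values are not independent. They cannot show whether same-numbered stems shared a batch. Of 126 refits of single genes, 10 had the other sign. The 126 include refits with other filters and with the replicate block, which cannot change the fold change of a gene here. Leaving out a library, DRM1 ran from -0.11 to 0.077, GDH1 from -0.20 to 0.027, DIN10 from -0.017 to 1.56 and bZIP1 from -0.094 to 0.47, with bZIP53 from -0.027 to 0.24. DRM1 was at 0.043 after median ratio scaling. The median r between the genes was 0.48 without WT replicate 1. The cause was not tested. Depth limits DIN2, at 0 to 32 reads.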

Other observations

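Of the phloem markers, the sugar carriers are given here. Of the 6 phloem markers, 4 were lower in all overexpressor stems than in any WT stem, against 9.69% of all genes tested. The 4 were SWEET11, SWEET12, APL and PP2-A1. The groups overlapped for SUC2 and for SEOR1, whose mean was higher in the overexpressor, at 18.3 against 14.5 FPKM. SWEET11, a sucrose exporter of phloem parenchyma, had 36.3, 47.0 and 45.6 FPKM in overexpressor replicates 1, 2 and 3, against 85.2, 93.7 and 91.9 FPKM in the WT replicates, WT replicate 1 included. SWEET12 had 71.4, 71.6 and 85.3 FPKM in the overexpressor against 91.9, 142 and 135 FPKM in WT. SUC2, which loads sucrose into the phloem, had 130.4 ± 3.56 FPKM in the overexpressor and 142 ± 20.6 FPKM in WT (SD, n = 3 each). For SUC2, WT replicate 1, at 119 FPKM, lay below all overexpressor stems, at 127 to 134 FPKM. None of these carriers passed limma's adjusted threshold over all 6 libraries, and all are given as values chosen after they were seen.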
